A study of Homo sapiens with 4 samples.

Results

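The genes described here encode tubulins, the proteins that form microtubules: the alpha-tubulins TUBA1A, TUBA1B, TUBA1C and TUBA4A, the beta-tubulins TUBB, TUBB2A, TUBB2B, TUBB3 and TUBB6, and the gamma-tubulin TUBG1. They were chosen by gene name. The 10 names matched 11 of the 48162 genes in the deposited table, since TUBB3 is listed under a pair of identifiers, and 9 of them were among the 12080 genes with a mean of at least 1 FPKM that entered the test. FPKM stands for fragments scaled to the length of the gene and to the total of the library, so that levels can be set side by side between genes. The cells were MDA-MB-231, an established human breast cancer line of mesenchymal character that lacks hormone receptors. They were kept for 24 h with vehicle (2 libraries) or with MGH-CP1 (2 libraries), a small molecule that blocks the autopalmitoylation of the TEAD transcription factors, through which the Hippo pathway effectors YAP and TAZ act on genes. No group carried a genetic change made for the experiment. The sample labels give the MGH-CP1 dose as 10 µM, whereas the methods of the study write 10 mM. One cell line was used, and the labels do not say whether the replicates came from separate cultures, so p-values measure the spread between these libraries, which may be technical.

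Alpha- and beta-tubulin pair into a dimer, and dimers add end to end and side by side to build the hollow microtubule that carries cargo, shapes the cell and forms the mitotic spindle. Humans have several genes, called isotypes, for each of the 2 proteins. The isotypes are nearly alike over most of their length and differ chiefly in the acidic tail at the end of the protein, which lies on the outside of the microtubule and is where many modifying enzymes act. Gamma-tubulin does not enter the wall of the microtubule but sits in a ring-shaped complex from which new microtubules start. Cells also adjust tubulin messenger RNA to the amount of free dimer: when free dimer is plentiful, the factor TTC5 binds the start of the tubulin chain as it leaves the ribosome, and the message is degraded with the help of SCAPER and the CCR4-NOT deadenylase.

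The last 60 coding bases of the beta isotypes are shown because they encode the tail that sets these isotypes apart. They were read from GENCODE 29 transcripts, 5′ to 3′, and capitals mark bases that differ from, or have no partner in, the aligned tail of TUBB, the most abundant beta isotype by the deposited FPKM.
TUBB: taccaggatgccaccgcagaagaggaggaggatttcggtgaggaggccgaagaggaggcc
TUBB2A: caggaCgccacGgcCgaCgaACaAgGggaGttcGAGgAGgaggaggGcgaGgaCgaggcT
TUBB2B: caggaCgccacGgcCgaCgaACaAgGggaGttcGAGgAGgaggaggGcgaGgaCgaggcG
TUBB3: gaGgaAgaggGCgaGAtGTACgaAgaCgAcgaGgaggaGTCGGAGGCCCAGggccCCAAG
TUBB6: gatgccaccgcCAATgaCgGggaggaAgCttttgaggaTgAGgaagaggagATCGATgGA
TUBB2A and TUBB2B each had 18 marked bases, TUBB6 19 and TUBB3 32. Over the whole coding sequence, TUBA1A was 97.2% identical to TUBA1B and 95.9% to TUBA1C, while TUBA4A was 84.4% to 85.7% identical to these 3. TUBB2A and TUBB2B were 98.2% identical, and TUBB was 84.6% identical to TUBB2A and 81.0% to TUBB6.

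Summed over genes, the vehicle libraries held 25455533 and 25508824 fragments and the MGH-CP1 libraries 17997221 and 17577930. Mitochondrial genes took 0.418% to 0.447% of the fragments in vehicle and 1.53% to 1.57% with MGH-CP1. The tubulin values changed little when all libraries were thinned to 17577930 fragments (TUBA1A log2 0.76, TUBA1C -0.63, TUBB -0.40) or when mitochondrial genes were left out of the totals (0.75, -0.62 and -0.39). VIM and CD44, which mark this line, had means of 274 and 202 FPKM in vehicle and 260 and 219 with MGH-CP1, and AXL, another marker of it, fell from 283 to 168 FPKM (log2 -0.76, SE 0.0953, limma adjusted p = 0.0004). In contrast, ESR1, PGR, PTPRC, RBFOX3, NEFL and CDKN2A were at most at 0.0510 FPKM in every library. CDH1 was at 0.326 FPKM in vehicle and 0.605 with MGH-CP1, and the epithelial keratins KRT8 (336 and 297) and KRT18 (115 and 90.0) and EPCAM (13.12 and 14.95) were present. In such a bulk sample, fewer cells of a type and less RNA per cell cannot be told apart.

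After MGH-CP1, 3 of the 9 tubulin genes tested rose (TUBA1A, TUBB2A and TUBB2B), 5 fell (TUBA1B, TUBA1C, TUBB, TUBB6 and TUBG1) and TUBA4A was not called. Conditions were compared by limma on log2(FPKM + 1) with a two-sided test, and p-values were adjusted over the 12080 genes by the Benjamini-Hochberg method and called under 0.05. Calls were common in this comparison: 50.8% of all genes tested were called, 27.1% as higher and 23.8% as lower, and 62.8% of the 3563 genes with a mean of at least 20 FPKM were called in either direction. All 9 tubulin genes had MGH-CP1 libraries that did not overlap the vehicle libraries, which held for 77.2% of all genes tested. The median log2 change of the 9 was -0.27, against 0.01 for all genes tested. An exact permutation test of 1 gene with 2 libraries against 2 cannot give p below 0.333, so that each call rests on the variance limma shares between genes.

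**Figure D1:**
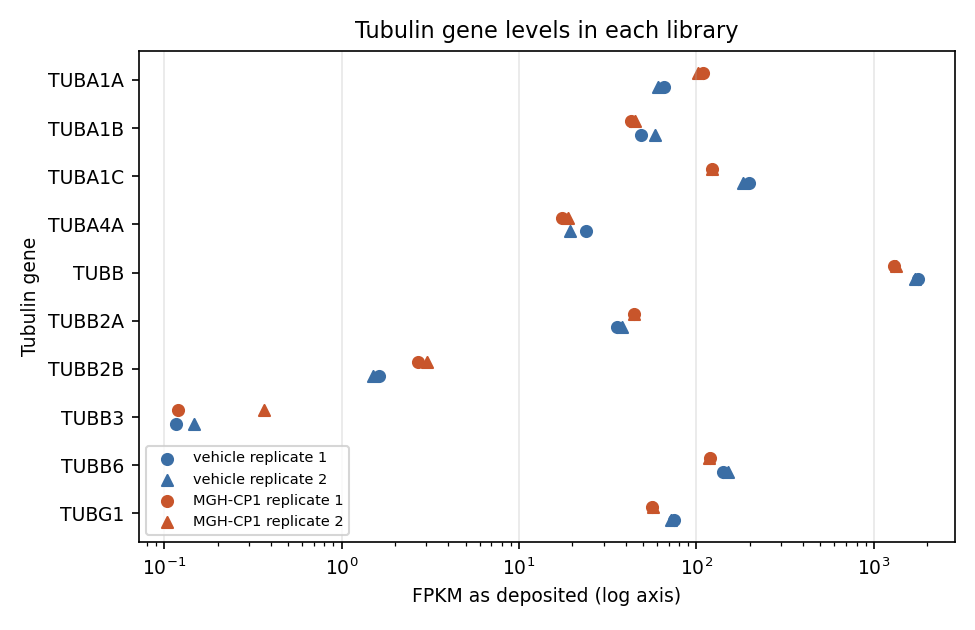
FPKM of the 10 tubulin genes (log axis) in the 2 vehicle libraries (blue) and the 2 MGH-CP1 libraries (orange), with circles for replicate 1 and triangles for replicate 2. TUBB lay between 1293 and 1769 FPKM and TUBB3 between 0.116 and 0.368, and for TUBA1A the MGH-CP1 points lay to the right of the vehicle points while for TUBA1C they lay to the left.

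Among the alpha-tubulins, the 2 isotypes that are neighbours on chromosome 12 moved in opposite directions. TUBA1A, an alpha-tubulin best known from developing neurons (ENSG00000167552, hg19 chr12:49578579-49583107, minus strand), had 66.0 and 60.8 FPKM in the vehicle libraries and 110 and 103 FPKM in the MGH-CP1 libraries. Both MGH-CP1 values lay above both vehicle values, and the mean went from 63.4 ± 3.66 to 106 ± 4.92 FPKM (SD, n = 2 each). The log2 change was 0.73 (SE 0.0583, limma adjusted p = 5.78e-05), and 6.71% of all genes tested had a larger change in either direction. TUBA1C, an alpha-tubulin made in many dividing cells (ENSG00000167553, chr12:49582519-49667114, plus strand), had 199 and 183 FPKM in vehicle and 122 and 123 with MGH-CP1. Its MGH-CP1 libraries were both lower and nearly the same, with means of 191 ± 11.3 and 123 ± 0.368 FPKM (SD, n = 2 each), a log2 change of -0.64 (SE 0.0529, limma adjusted p = 6.99e-05). A larger change was seen for 10.1% of all genes. As the listed intervals of these genes overlap by 589 bases on opposite strands, and whether the counting used strand is not given in the sources used here, fragments in the overlap cannot be assigned to either. The part of this overlap in the changes of the 2 genes was not tested.

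TUBA1B, an alpha-tubulin made in most tissues (ENSG00000123416, chr12:49521565-49525180, minus strand), had 48.5 and 58.1 FPKM in vehicle and 42.7 and 45.0 with MGH-CP1. The vehicle libraries stood further apart (53.3 ± 6.81, SD, n = 2) than the MGH-CP1 libraries (43.9 ± 1.65), although the groups did not overlap. It fell by 0.27 on the log2 scale (SE 0.0817, limma adjusted p = 0.0249), but the call was lost without vehicle replicate 2 (log2 -0.14, adjusted p = 0.0969), without MGH-CP1 replicate 1 (-0.23, 0.124) and without MGH-CP1 replicate 2 (-0.31, 0.0535). In GENCODE 29, 64.2% of the 150-base windows of TUBA1B also occur in another gene, against 12.6% for TUBA1A and 23.9% for TUBA1C. All 949 shared windows of TUBA1B occur in AC011603.2, so this record alone gives the 64.2%. The deposited values were made on hg19, and how far these shared windows bear on them was not tested. In the hg19 coordinates, only the antisense RP11-386G11.10 overlaps TUBA1B, with 0 to 3 fragments. The partner with the most windows was AC125611.3 for TUBA1C (489 of 682) and TUBA1C for TUBA1A (116 of 222). For TUBA4A, 23.7% of the windows were shared, and all 478 of them occur in STK16. TUBA4A, the alpha isotype least like the others in coding sequence (ENSG00000127824, chr2:220114433-220142892, minus strand), had 23.8 and 19.4 FPKM in vehicle and 17.5 and 18.9 with MGH-CP1. Its log2 difference of -0.23 (SE 0.0933) did not pass the test (limma adjusted p = 0.0708). Vehicle replicate 1 was the highest of the 4 libraries: without it the difference was -0.09 (adjusted p = 0.407), and without vehicle replicate 2 it was -0.37 (adjusted p = 0.0027).

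TUBB supplied most of the beta-tubulin message and fell. TUBB, the common beta-tubulin of dividing cells (ENSG00000196230, chr6:30687978-30693203, plus strand), had 1769 and 1702 FPKM in vehicle and 1293 and 1330 with MGH-CP1, and ranked 10 among the genes tested by mean level. The groups were well apart compared with their spread (SD 47.8 and 26.3, n = 2 each), and TUBB fell by 0.40 on the log2 scale (SE 0.0512, limma adjusted p = 0.0004). With quantile normalization between the libraries the change was -0.91, and the cause of this difference was not tested. TUBB6, a beta-tubulin 81.0% identical to TUBB in coding sequence (ENSG00000176014, chr18:12307668-12344319, plus strand), had 141 and 151 FPKM in vehicle and 120 and 118 with MGH-CP1. Both MGH-CP1 values were lower, with a log2 change of -0.30 (SE 0.0508, limma adjusted p = 0.0018). The interval listed for TUBB6 overlaps AFG3L2 on the opposite strand over 15377 bases. TUBB4B, a broadly expressed beta-tubulin that was not chosen as a member, had 487 and 481 FPKM in vehicle and 392 and 384 with MGH-CP1, and its log2 change was -0.32 (SE 0.0453, limma adjusted p = 0.0008).

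The near-identical genes TUBB2A and TUBB2B rose against this direction. TUBB2A, prominent in neurons but made in other tissues too (ENSG00000137267, chr6:3153903-3157760, minus strand), had 35.5 and 38.0 FPKM in vehicle and 44.6 and 44.4 with MGH-CP1. The MGH-CP1 values were both higher, by 0.27 on the log2 scale (SE 0.0536, limma adjusted p = 0.0039). TUBB2B, a beta-tubulin of the developing brain (ENSG00000137285, chr6:3224495-3231964, minus strand), was rare, at 1.63 and 1.49 FPKM (84 and 77 fragments) in vehicle and 2.70 and 3.01 FPKM (98 and 107 fragments) with MGH-CP1. Again both MGH-CP1 values were higher, with a ratio of means of 1.83 and a log2 change of 0.59 (SE 0.106, limma adjusted p = 0.0025). Adding 1 to so low a level shrinks the change, which was 0.83 with 0.1 in place of 1. Of all windows of 150 bases, the read length, 49.4% of those in TUBB2A and 39.4% of those in TUBB2B also occur in another gene of GENCODE 29, mostly in each other, so how fragments were split between them is uncertain. Their sum had the values 37.1 and 39.5 FPKM in vehicle and 47.3 and 47.4 with MGH-CP1, a mean 23.5% higher.

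TUBB3, the beta-tubulin used as a marker of neurons, had at most 24 fragments in a library under either identifier. Under its first identifier (ENSG00000258947, chr16:89987800-90005169, plus strand) it had 0.116 and 0.148 FPKM in vehicle and 0.120 and 0.368 with MGH-CP1, from 11, 14, 8 and 24 fragments. The highest value came from 1 MGH-CP1 library, and the other lay between the vehicle values, so the groups overlapped. The exact 95% Poisson intervals, which cover counting error only, ran from 0.0517 to 0.236 FPKM in MGH-CP1 replicate 1 and from 0.235 to 0.547 FPKM in replicate 2. Under the other identifier (ENSG00000198211, chr16:89985573-90002500), an interval that overlaps the first by 14701 bases, TUBB3 is listed at 0 in every library. The counting tool is not given in the sources used here. Whether fragments in these shared bases were left uncounted was not tested. Neither passed the filter of a mean of 1 FPKM, and 88.7% of the 150-base windows of TUBB3 also occur in another gene of GENCODE 29. All 1437 of these windows occur in the GENCODE 29 record named AC092143.1. The deposited genes include a pseudogene of this name, and whether it is the same record was not checked. That pseudogene overlaps ENSG00000198211 on the same strand over 1803 bases, but not ENSG00000258947, and had no fragment in any library.

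TUBG1, the main gamma-tubulin of dividing cells (ENSG00000131462, chr17:40761694-40767252, plus strand), had 74.5 and 72.1 FPKM in vehicle and 56.4 and 56.9 with MGH-CP1. Replicates lay close together, and TUBG1 fell by 0.37 on the log2 scale (SE 0.0472, limma adjusted p = 0.0005). Its close copy TUBG2, 94.7% identical in coding sequence and not a member, went the other way, from 10.2 and 9.23 FPKM to 17.0 and 16.6 FPKM (log2 0.74, SE 0.0677, limma adjusted p = 0.0001). The TUBG1 to TUBG2 ratio was 7.32 and 7.81 in vehicle and 3.31 and 3.42 with MGH-CP1, while their sum had means of 83.0 and 73.5 FPKM. Only 6.22% of the 150-base windows of TUBG1 occur in another gene. Of the other tubulin genes outside the 10, TUBD1 (log2 0.12, limma adjusted p = 0.321) and TUBE1 (-0.26, 0.0966) did not pass the test, and 9 were below the filter.

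**Figure D2:**
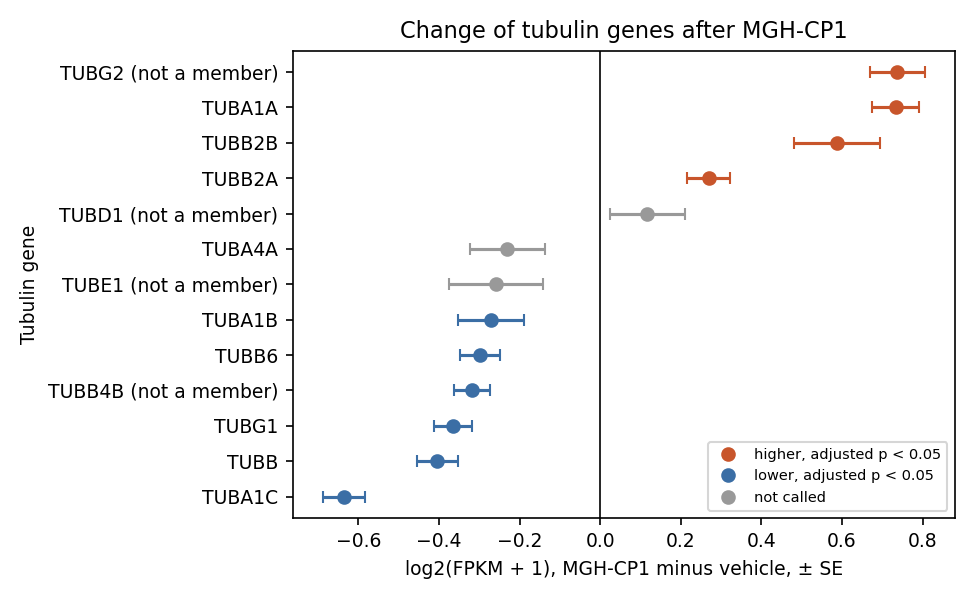
Difference in log2(FPKM + 1) between MGH-CP1 and vehicle for the 9 tubulin genes tested and 4 other tubulin genes, with bars for the SE. The estimates ran from -0.64 for TUBA1C to 0.74 for TUBG2, and grey points mark TUBA4A, TUBD1 and TUBE1, which did not pass the adjusted p threshold of 0.05.

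The alpha-tubulin message held more TUBA1A and less TUBA1C after MGH-CP1. The 4 alpha isotypes summed to 338 and 322 FPKM in vehicle and 292 and 290 with MGH-CP1, a mean 11.8% lower. TUBA1A made up 19.5% and 18.9% of this sum in vehicle and 37.5% and 35.4% with MGH-CP1. TUBA1C went from 59.0% and 57.0% to 41.9% and 42.5%. The TUBA1A to TUBA1C ratio was thus 0.331 and 0.332 in vehicle and 0.894 and 0.834 with MGH-CP1, with no overlap between groups. TUBA1B (means of 16.2% and 15.1%) and TUBA4A (6.54% and 6.25%) had shares that overlapped between the groups. These shares depend on the gene lengths listed: with GENCODE 29 transcript lengths, a choice made after the data were seen, TUBA1B made up 34.0% in vehicle and 30.1% with MGH-CP1, and TUBA1C 37.3% and 25.7%.

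For the beta isotypes the summed level was lower with MGH-CP1, and TUBB made up most of it in both groups. Their sum was 1948 and 1893 FPKM in vehicle and 1460 and 1496 with MGH-CP1, a mean 23.0% lower, and 22.4% lower when TUBB4B was added. With quantile normalization the sum fell by 43.8% and the share of TUBB fell by 5.11 percentage points, from 91.8% to 86.7%. TUBB held 90.4% ± 0.658 of the sum in vehicle and 88.7% ± 0.269 with MGH-CP1 (SD, n = 2 each), and TUBB2A rose from 1.92% ± 0.131 to 3.01% ± 0.0600. TUBB6 had shares of 7.25% and 8.003% in vehicle and 8.21% and 7.88% with MGH-CP1, which overlapped. The beta to alpha ratio was 5.77 and 5.88 in vehicle and 4.997 and 5.17 with MGH-CP1. These shares and this ratio leave out TUBB4B, with which the beta sum had means of 2404 FPKM in vehicle and 1866 with MGH-CP1. The share of TUBB in all beta-tubulin message was therefore lower than given here. All 10 genes together took 0.623% ± 0.0137 of the fragments in vehicle and 0.484% ± 0.0074 with MGH-CP1 (SD, n = 2 each). Sums over isotypes were given no test.

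**Figure D3:**
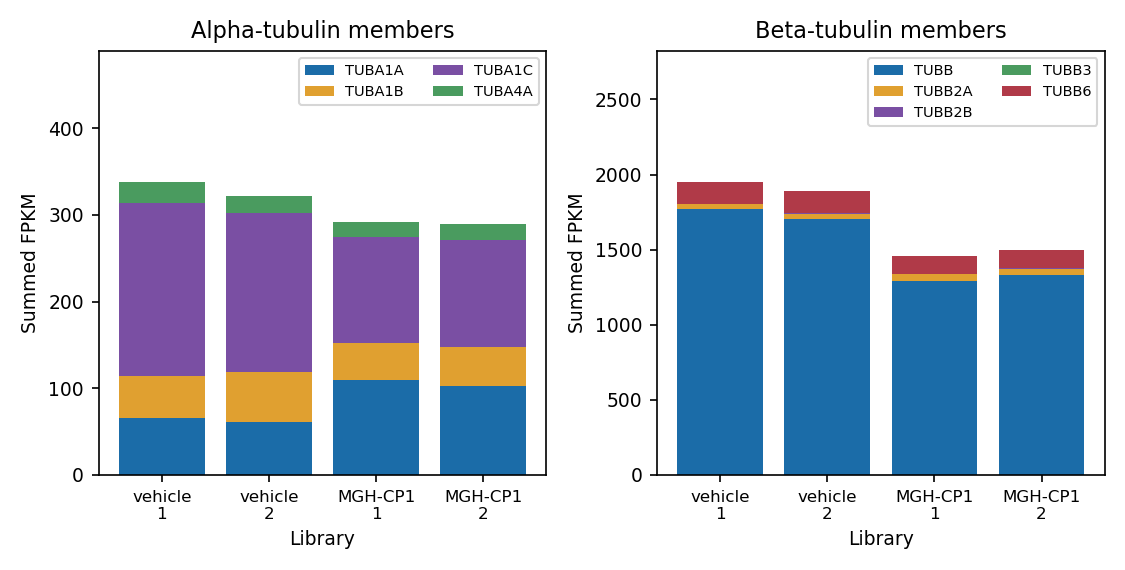
Summed FPKM of the alpha-tubulin (left) and beta-tubulin (right) genes in each library, stacked by isotype from 0. The TUBA1A part of the alpha bars widened from 19.2% to 36.5% of the sum and the TUBA1C part narrowed from 58.0% to 42.2%. TUBB remained near 90% of the beta bars (90.4% and 88.7%) as these became shorter. The beta bars leave out TUBB4B.

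By the deposited FPKM, the order of mean levels in vehicle was TUBB (1736), TUBA1C (191), TUBB6 (146), TUBG1 (73.3), TUBA1A (63.4), TUBA1B (53.3), TUBB2A (36.8), TUBA4A (21.6), TUBB2B (1.56) and TUBB3 (0.132), and no neighbours in this order had overlapping libraries. With MGH-CP1, TUBA1A (106) passed TUBG1 (56.7), and TUBB2A (44.5) and TUBA1B (43.9) lay so close that their libraries overlapped. The order among the alpha isotypes depended on the gene length used. The table lists 3198 bases for TUBA1B and 1800 for TUBA1C, where the main coding transcripts in GENCODE 29 have 1627 and 3001. With the transcript lengths, vehicle means were 115 FPKM for TUBA1C and 105 for TUBA1B, and MGH-CP1 means were 106 for TUBA1A, 86.2 for TUBA1B and 73.6 for TUBA1C. Fold changes of single genes do not depend on the length, but the fall of the alpha sum was then 6.81%.

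Over the 4 libraries, the genes whose centred log2 levels lay nearest to those of TUBA1A, the tubulin gene with the largest change on the log2(FPKM + 1) scale (the ratio of means was larger for TUBB2B, 1.83 against 1.67), were CAMK2D, a calcium and calmodulin dependent kinase subunit (Euclidean distance 0.0196), ASAP3, a GTPase-activating protein for ARF (0.0200), and TAPBPL, a relative of tapasin (0.0350). CAMK2D, for example, had 12.9 and 11.8 FPKM in vehicle and 21.5 and 20.3 with MGH-CP1. With 4 libraries in 2 groups, such likeness is a description of these values.

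Promoter sequence is shown for TUBA1A and TUBA1C because these neighbours moved apart. The 250 bases before the start nearest to the start codon were taken from RefSeq, GRCh38.p14, and read 5′ to 3′ on the strand of the gene: chr12:49189081-49189330 (minus strand) for TUBA1A and chr12:49264832-49265081 (plus strand) for TUBA1C. Capitals mark CCAAT or its reverse complement ATTGG, the box bound by NF-Y.
TUBA1A: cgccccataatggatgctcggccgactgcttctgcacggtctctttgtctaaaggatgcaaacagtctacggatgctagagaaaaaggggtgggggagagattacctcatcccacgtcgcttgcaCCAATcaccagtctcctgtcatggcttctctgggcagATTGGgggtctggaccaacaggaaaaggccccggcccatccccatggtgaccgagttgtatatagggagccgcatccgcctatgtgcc
TUBA1C: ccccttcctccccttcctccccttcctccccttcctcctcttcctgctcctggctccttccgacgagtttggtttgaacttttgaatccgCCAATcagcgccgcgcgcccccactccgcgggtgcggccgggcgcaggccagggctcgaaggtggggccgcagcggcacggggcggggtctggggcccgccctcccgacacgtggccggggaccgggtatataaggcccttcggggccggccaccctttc
All 10 genes had a RefSeq promoter window of 300 bases (250 before and 50 after the start), 15 windows in all. CCAAT or ATTGG stood in the nearest window of TUBA1A (2 matches) and of TUBA1C, TUBB, TUBB2B, TUBB3, TUBB6 and TUBG1 (1 match each), and 34.6% of 35116 windows hold it. The letters CATTCC or GGAATG, the core bound by TEAD, stood in none of the 10 nearest windows and in 14.0% of all windows, and a second window of TUBB6 held 2 matches. TTTGAA or TTCAAA, the CHR element of cell cycle genes, had 2 matches in TUBA1C and none in the nearest windows of the other 9, against 15.2% of all windows. A match is a run of letters and not a measured binding site, and the absence of one says only that these letters are not in the window.

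Genes that act on tubulin, and the tubulin genes outside the 10, were grouped in 7 lists, of which 94 genes were tested: 23 rose, 45 fell and 26 were not called, with a median log2 change of -0.20 against 0.01 for all genes tested. The background stayed at 27.1% higher and 23.8% lower, but it was not matched to the lists by level. With only genes of a mean of at least 5 FPKM in the fit, 2434 of 8439 genes were higher and 2564 lower. Of the 79 list genes in that fit, 18 were higher and 45 lower. The tubulin folding list had the chaperonin that folds new tubulin, the prefoldin that hands tubulin to it and the cofactors that join alpha to beta. Of its 20 genes 11 fell, 4 rose and 5 were not called (median -0.23). All 8 chaperonin genes, TCP1, CCT2, CCT3, CCT4, CCT5, CCT6A, CCT7 and CCT8, were among those that fell. CCT5 had means of 168 FPKM in vehicle and 107 with MGH-CP1 (log2 -0.64, SE 0.05003, limma adjusted p = 5.53e-05), and CCT3, the most abundant of the list, 208 and 158 (-0.40, SE 0.0448, 0.0003). PFDN6, a prefoldin subunit, rose from 24.4 to 33.1 FPKM (log2 0.45, SE 0.131, limma adjusted p = 0.0222), followed by PFDN5 (0.28) and the cofactor TBCC (0.17). Of the 4 rises, 2 were left after median-ratio scaling between libraries, and between 0 and 2 when vehicle replicate 1 or either MGH-CP1 library was left out.

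The list for the control of tubulin message by free dimer held 12 genes tested, of which 4 fell, 1 rose and 7 were not called (median -0.13). TTC5, the factor that reads the start of the tubulin chain, had 2.98 and 2.89 FPKM in vehicle and 3.51 and 2.76 with MGH-CP1, which overlapped (log2 0.07, SE 0.112, limma adjusted p = 0.642). SCAPER overlapped between the groups as well (-0.08, SE 0.104, 0.538). CNOT1, the scaffold of the CCR4-NOT complex, fell from 37.1 to 27.8 FPKM (log2 -0.41, SE 0.0523, limma adjusted p = 0.0005), as did RQCD1 (-0.33). CNOT10 fell by 0.34 on the log2 scale, a call lost without vehicle replicate 1 (limma adjusted p = 0.0616) and without MGH-CP1 replicate 1 (0.0662). The deadenylase subunit CNOT8 was higher by 0.23 (limma adjusted p = 0.0194), a call lost without vehicle replicate 2 (0.0825), without MGH-CP1 replicate 1 (0.123), after median-ratio scaling (0.0508), without the variance trend (0.0518) and without the filter on low values (0.105). The first 12 coding bases are shown so that genes that moved apart can be set side by side. In the alpha- and beta-tubulins they encode the start of the chain read by TTC5, and TUBG1 is listed for comparison only.
TUBA1A, TUBA1B and TUBA1C: atgcgtgagtgc
TUBA4A: atgcgtgaatgc
TUBB: atgagggaaatc
TUBB2A: atgcgcgagatc
TUBB2B: atgcgtgagatc
TUBB3 and TUBB6: atgagggagatc
TUBG1: atgccgagggaa
TUBA1A, which rose, and TUBA1C, which fell, had the same 12 bases, and so did TUBA1B. Read as codons, all alpha starts encode Met-Arg-Glu-Cys and all beta starts encode Met-Arg-Glu-Ile. The base differences within each family thus leave the encoded start unchanged, while TUBG1 encodes Met-Pro-Arg-Glu.

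The list of the gamma-tubulin ring complex and its anchors, the partners of TUBG1, had 13 genes tested, of which 8 fell, 4 rose and 1 was not called (median -0.29). NEDD1, which brings the ring complex to the centrosome and spindle, fell from 20.9 to 13.3 FPKM (log2 -0.61, SE 0.0670, limma adjusted p = 0.0002), and the centrosomal anchor NIN (-0.49) and the ring subunit TUBGCP3 (-0.47) fell too. TUBGCP6, another ring subunit, rose from 5.15 to 10.0 FPKM (log2 0.84, SE 0.0754, limma adjusted p = 9.38e-05), with MZT2B (0.69) and TUBGCP2 (0.37, from 42.6 to 55.5 FPKM), the most abundant of the list. Subunits of the ring moved both ways, where 27.1% of all genes tested were called higher and 23.8% lower.

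Enzymes that modify tubulin, many of them on its tails, had 15 genes tested, of which 7 rose, 3 fell and 5 were not called (median -0.01). TTL, which puts the last tyrosine back on alpha-tubulin, fell from 37.3 to 22.4 FPKM (log2 -0.71, SE 0.0583, limma adjusted p = 6.39e-05). TTLL3, which adds glycine to tubulin, rose from 0.821 to 3.25 FPKM (log2 1.22, SE 0.114, limma adjusted p = 0.0001). Adding 1 to FPKM shrinks changes at such low levels: the ratio of means was 3.96 for TTLL3 and 2.24 for KIAA0895L. KIAA0895L, which removes the last tyrosine of alpha-tubulin, rose by 0.88, from 2.10 to 4.70 FPKM, and HDAC6, which removes acetyl groups from alpha-tubulin, by 0.48, from 16.8 to 23.8 FPKM. TTLL12 (-0.47) and the glutamylase TTLL5 (-0.43) fell.

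Among 20 microtubule-associated and end-binding proteins tested, 10 fell, 5 rose and 5 were not called (median -0.21). The end-binding proteins went apart: MAPRE1 (EB1), the most abundant of the list, fell from 149 to 118 FPKM (log2 -0.34, SE 0.0448, limma adjusted p = 0.0005), and MAPRE3 (EB3) rose from 7.35 to 13.7 FPKM (0.81, SE 0.0957, 0.0003). The linker CLIP2 rose (0.52). CAMSAP3 was called higher (0.34, limma adjusted p = 0.0445), but not when any of the 4 libraries was left out (adjusted p from 0.0657 to 0.213). MAP7D3 (-0.71), MAP1B (-0.70) and the cytolinker DST (-0.67) fell. The 10 genes of destabilising and severing proteins had the lowest median of the 7 lists, -0.44, with 8 that fell, 1 that rose and 1 not called. KIF2C, the depolymerising kinesin of the spindle, fell from 54.5 to 30.3 FPKM (log2 -0.83, SE 0.0533, limma adjusted p = 2.79e-05), with FIGNL1 (-0.65), KIF2A (-0.55) and STMN1 (-0.53, from 205 to 142 FPKM), which binds free dimers. STMN3 rose from 24.6 to 41.2 FPKM (log2 0.72, SE 0.0618, limma adjusted p = 7.69e-05). Without vehicle replicate 1, 5 of the 8 falls in this list were called.

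**Figure D4:**
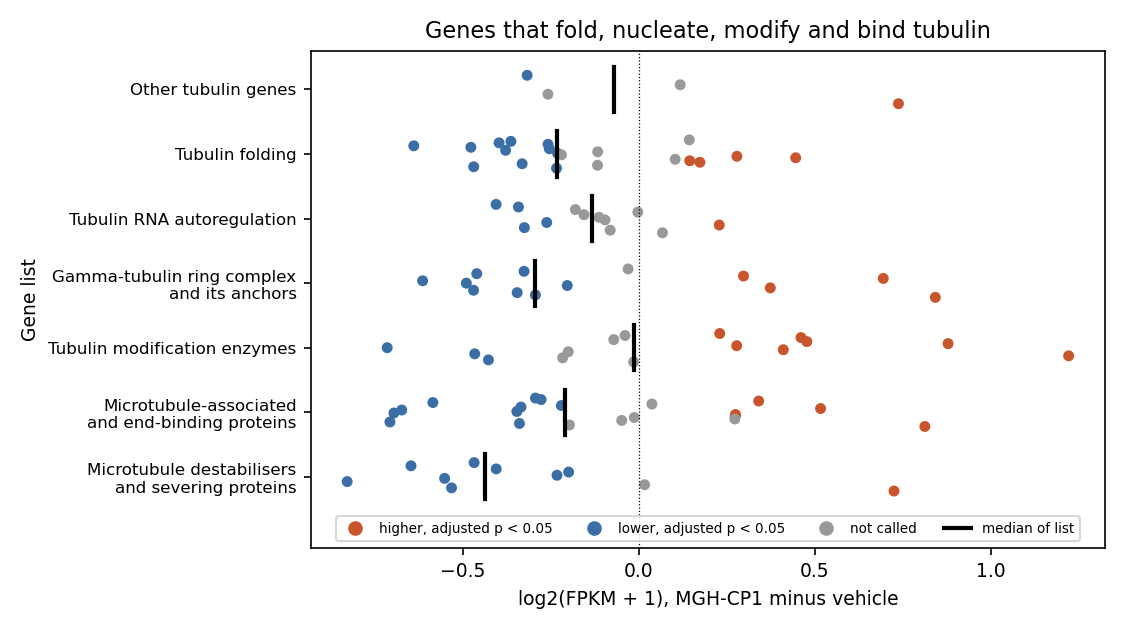
Difference in log2(FPKM + 1) between MGH-CP1 and vehicle for each gene tested in the 7 lists, 1 point per gene, coloured by call, with a black bar at the median of the list. The medians ran from -0.44 for destabilising and severing proteins to -0.01 for modification enzymes, and the highest point is TTLL3 at 1.22. Adding 1 to FPKM shrinks the changes of genes at low levels.

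Tubulin pseudogenes, which resemble the genes they were copied from, held few fragments. Of 39 tubulin pseudogenes listed, 30 had no fragment in any library, and all 39 together had at most 40 fragments in a library, where TUBB2A had 1245 to 1547. Among partners that overlap a member on the opposite strand, STK16 (627 bases with TUBA4A, 566 to 724 fragments), PSMG4 (328 bases with TUBB2B, 421 to 598 fragments) and FAM134C (948 bases with TUBG1, 1674 to 1888 fragments) were expressed. So was AFG3L2 (15377 bases with TUBB6, 1056 to 1925 fragments). By FPKM, both MGH-CP1 libraries lay below vehicle for AFG3L2, as for TUBB6, and above vehicle for STK16, PSMG4 and FAM134C. In the GENCODE transcripts, 0 of the 1915 windows of 150 bases in TUBB6 also occur in another gene. How far this holds for the deposited values, and the part of AFG3L2 in the fall of TUBB6, was not tested. For TUBB2B, with 77 to 107 fragments, the overlapping partner had more fragments than the gene itself. Scaled to depth, PSMG4 had 4.45 and 5.09 FPKM in vehicle and 5.43 and 5.20 with MGH-CP1, where both values were higher but the difference did not pass the test (log2 0.13, SE 0.0877, limma adjusted p = 0.239), and its part in the rise of TUBB2B was not tested.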

How the data were processed

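RNA of MDA-MB-231 cells kept for 24 h with vehicle or MGH-CP1 was measured in 2 libraries each (poly-T selected mRNA, 150 base paired-end reads). The authors deposited FPKM for 48162 genes with gene length and coordinates. The submitters' processing notes name CASAVA 1.8, STAR and hg19; the counting tool and its strand setting are not given in the sources used here. FPKM multiplied by length is a whole multiple of 1 step in each library (100% of values within 0.01), so fragments per gene were recovered. Samples were matched to columns by condition and replicate number.

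Deposited FPKM were moved to a log2(FPKM + 1) scale, and the 12080 genes of mean FPKM 1 or more were fitted with limma 3.58.1 in R 4.3.3 (trend, 5.97 prior degrees of freedom, Benjamini-Hochberg, threshold 0.05). Since the unit is FPKM, limma voom on the recovered fragments was only an alternative. All 10 tubulin genes are named, and from each list up to 3 genes with the largest rise and up to 3 with the largest fall among those called and not overlapping, plus the most abundant; TTC5, SCAPER, CCT2, CCT4, CCT7, CCT8, TUBD1 and TUBE1 were named after their values were seen. The tubulin genes and lists were chosen with earlier results of these data known, and the lists were written from general knowledge. A simulated comparison of MGH-CP1 against vehicle had 12061 genes, with 99 changed by 0.5 (log2) and 97 by 1. The fit found 64.6% of the former and 94.8% of the latter, and 6.59% of its 167 calls were wrong. Far fewer genes were changed there than the 50.8% called in the data. Every simulated gene also had the same dispersion, the spread beyond counting noise. These rates therefore cannot be carried over to the calls reported here. Replicates of a group differed by more than counting noise (chi-square per degree of freedom 4.38 and 3.16), so none was counted as a copy. Coding sequences came from GENCODE 29 and promoters from RefSeq (GRCh38.p14); neither set of coordinates was mixed with hg19. Alternatives were another pseudocount, filter, scaling or variance model, the replicate number as a block, equal depth, and leaving out each library. The coding ends of the alpha isotypes are not reported here.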

Additional observations from a re-analysis of the deposited data

How the results depend on the processing

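Under 15 alternatives, no tubulin gene changed direction: of 134 log2 values, 115 stayed on their side of the threshold, 14 lost the call and 5 (all TUBA4A) gained it. Without shared variance, which leaves each gene 2 residual degrees of freedom, 0 of the tubulin genes were called higher and 0 lower (7 of 9 had an unadjusted p under 0.05), and in the 7 lists 0 were higher and 0 lower (53 of 94 unadjusted). Without a filter on low values, 3 tubulin genes were lower, TUBA1B (adjusted p = 0.177) and TUBB (0.0504) being lost, and 15 list genes were higher. TUBA1B also missed the threshold in limma without the trend (0.0695). TUBA4A was called with a mean of at least 5 FPKM (adjusted p = 0.0442), median-ratio scaling (0.0355) and limma voom (0.0165). The alpha sum fell by 15.1% with median-ratio scaling, and the beta sum fell by 25.9% with it and fell by 43.8% with quantile normalization. With transcript lengths, chosen after the data were seen, the TUBA1C share of the alpha sum changed by -11.6 percentage points in place of -15.8.

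No source says that a replicate number marks a shared culture, and deviations of same-numbered libraries correlated at 0.0777. With the replicate block, 3 tubulin genes were higher and 6 lower, TUBA4A being added (adjusted p = 0.0395), and 23 and 47 list genes. Leaving out each library in turn gave 3 tubulin genes higher each time and 4 to 5 lower, and 16 to 20 list genes higher and 39 to 43 lower. At a depth of 17577930 to 25508824 fragments, TUBB3 had 8 to 24 fragments, too few to test. The 2 libraries a group limit every call.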
